A study of Mus musculus with 38 samples.

Results

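Kidney tumours lacking Vhl and expressing MYC (VM tumours) were set against normal mouse kidney by RNA-seq. The comparison holds 3 VM tumour libraries, each from 1 mouse (3115, 3055 and 2459), and 5 normal kidney libraries (B6-J18, B6-J19, KT-J20, KT-J21 and KT-J22). These are 8 of the 38 libraries in the series, and they were chosen by their labels alone. The tumour labels read Vhl-/-; MYC + and the mice were kept on doxycycline (Dox). In the study's design such mice carry Ksp-CreERT2, Vhl F/F, Ksp-rtTA and Tet-O-Myc, so that tamoxifen deletes Vhl and Dox turns on MYC. Ksp is the promoter of kidney-specific cadherin (Cdh16), which is active in tubule epithelium, and stromal, vascular and immune cells of a tumour therefore keep intact Vhl. The normal kidneys are labelled wild type and given vehicle, so deletion, transgene, tamoxifen and Dox differ between the groups at once and cannot be told apart. What B6 and KT stand for, the ages and the sexes were not given in the labels. The rest of the series holds cultured lines with and without Dox, 3 tumours that also lack Ink4a/Arf (VIM) and 3 libraries of tumours with MYC alone, from 2 mice.

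VHL is the substrate-binding part of a ubiquitin ligase that marks the alpha subunits of hypoxia-inducible factor (HIF) for degradation when oxygen is present. Without VHL, HIF stays active in normal oxygen and switches on genes of glucose uptake, glycolysis, angiogenesis and matrix formation, which is the founding lesion of clear cell renal carcinoma. MYC is a transcription factor that drives ribosome formation, nucleotide synthesis and entry into the cell cycle, and it binds E-box sequences whose core overlaps the HIF core.

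The values are gene-level read estimates scaled by the authors to 1000 units at each library's upper quartile, and they are not divided by gene length. The 8 libraries held an estimated 11300000 to 15500000 reads assigned to genes, and a level of 3 reads corresponded to 3.09 to 5.19 units. The 10 most abundant genes took 5.06% to 6.34% of a tumour library and 8.05% to 13.6% of a kidney library. Each gene was tested with limma on log2(level + 1), so the change of low genes is understated. A gene was called when its adjusted p was under 0.05 and its change exceeded 1 on the log2 scale. Below, tumour values are given in the order 3115, 3055 and 2459, and kidney values in the order B6-J18, B6-J19, KT-J20, KT-J21 and KT-J22.

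Kidney KT-J22 stood apart from the other kidneys before any tumour was considered. Xist, the RNA that silences an X chromosome, was at 0, 0, 3.63, 1204 and 20506 units over the 5 kidneys, and Ddx3y, a Y-linked gene, was at 1396, 1303, 1743, 1448 and 69.6. KT-J22 thus held high Xist and low Ddx3y, KT-J21 held both, and the other kidneys and all tumours held Ddx3y with Xist at or under 9.32 units. Kap, an androgen-dependent protein of the proximal tubule, was at 1234950, 1117530, 813562, 849961 and 233226 units. Cyp4a14, a fatty acid hydroxylase, was at 83, 57.6, 94.5, 1845 and 14990.5, and Prlr, the prolactin receptor, was at 93.4, 83, 112, 613 and 9371. Among 12156 genes with at least 50 units in a kidney library, KT-J22 was over 4-fold above every other kidney for 70 and over 4-fold below for 68, against at most 3 and 5 for each of the others. Between the kidneys labelled B6 and KT no gene was called (0 of 15840 by limma, 0.0%, with 2777 at an unadjusted p under 0.05 and 10 called without KT-J22). Among the tumours, 3115 stood apart in 323 genes over 4-fold above both other tumours, against 68 for 3055 and 51 for 2459, of 11881. In the other direction, 62 genes were over 4-fold lower in 3115 than in both others, 176 in 3055 and 120 in 2459. Results that turn on KT-J21, KT-J22 or tumour 3115 are given with and without them.

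**Figure D1:**
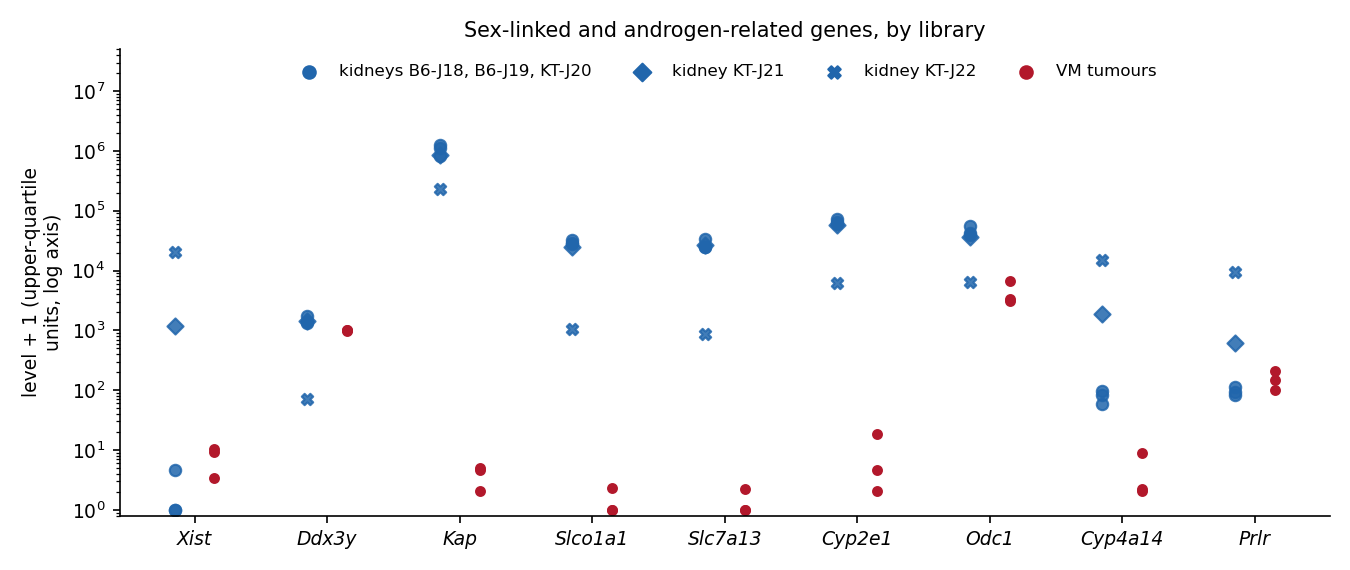
Sex-linked and androgen-related genes in each of the 5 kidney and 3 VM tumour libraries, as level + 1 in upper-quartile units on a log axis. KT-J22 (crosses) lies away from the other kidneys for every gene drawn, and KT-J21 (diamonds) lies between them for Xist, Cyp4a14 and Prlr.

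The difference between tumour and kidney was broad. Of 16013 genes tested, 2837 (17.7%) were higher and 3721 (23.2%) lower in VM tumours, 41.0% in all. For 52.5% of the genes tested, the lowest library of 1 group lay above the highest of the other. These shares are the background against which each list of genes is read, because a list with a similar share says nothing particular about its members. Leaving out KT-J21 and KT-J22 gave 2894 higher and 3358 lower genes, and leaving out tumour 3115 gave 2638 higher and 3921 lower. Quantile normalization moved the median change of all genes from −0.06 to 0.11 on the log2 scale and turned the split to 3507 higher and 3209 lower, so small shifts near 0 are not read as changes below.

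**Figure D2:**
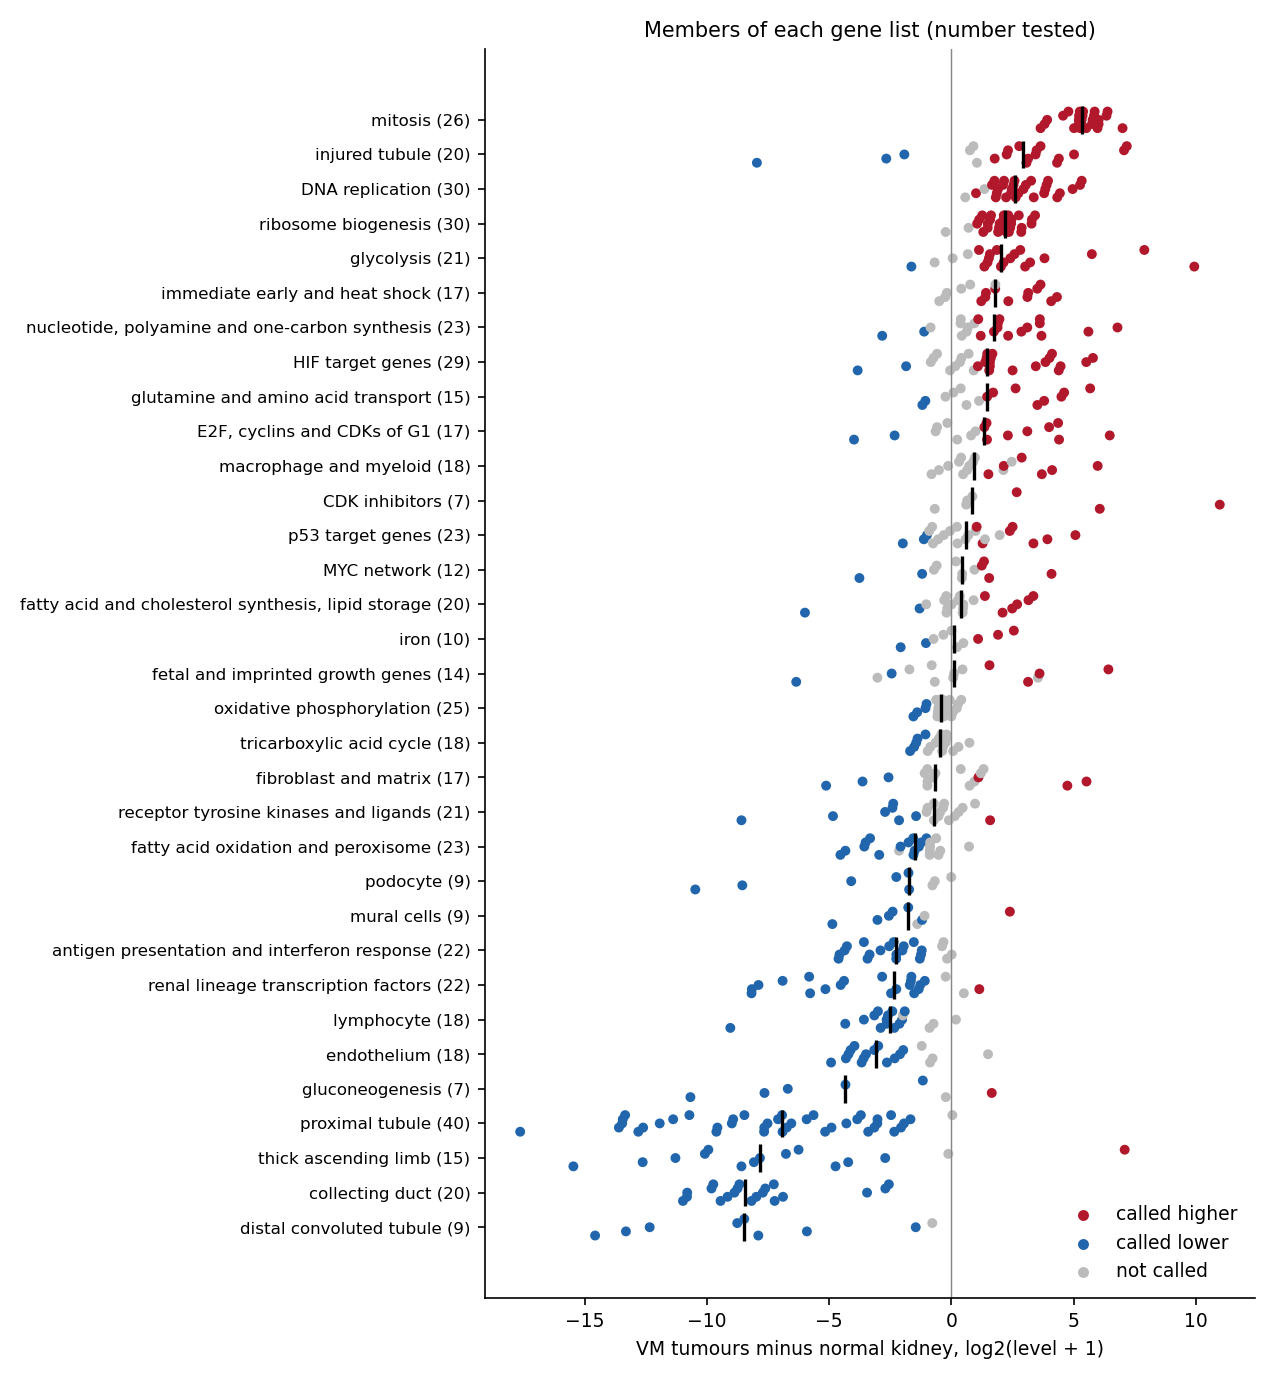
Log2 change (VM tumours minus normal kidney) of each tested member of 31 gene lists, with the number tested in parentheses and a black bar at the median. Every mitosis gene lies above 0 and is called higher, and the tubule lists at the bottom lie almost wholly below 0.

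The engineered genes were examined to check the labels. Vhl (mm9 chr6:113573953-113581627, plus strand, 3 exons at most per transcript) was at 79.9, 40.2 and 40.7 units in the tumours and 772, 744, 638, 661 and 612 in the kidneys. The groups did not overlap, and the tumour mean was 7.82% of the kidney mean (log2 change −3.72 ± 0.25 (SE), adjusted p = 2.3e-06). Tumour 3115 held the most remaining Vhl reads, and it also held the highest sum of endothelial markers, 6041 units against 1098 and 1763. The part of unrecombined cells in this level was not tested. Myc (mm9 chr15:61816946-61821929, plus strand) was at 409, 462 and 801 units in the tumours and 62.3, 64.3, 40.7, 48.2 and 119 in the kidneys (log2 change 3.08 ± 0.38 (SE), adjusted p = 9.6e-05). Every tumour lay above every kidney, and the table does not separate transgene from endogenous transcripts. Cdh16, whose promoter drives both the recombinase and the transactivator, was at 11336, 14725 and 8544 units in tumours and 16888, 20501, 18226, 19428 and 23962 in kidneys (log2 change −0.80, adjusted p = 0.0097, not called).

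Cdkn2a, which encodes the cell cycle inhibitor INK4A and the p53 activator ARF, had the largest fitted rise of all genes averaging 50 units or more. It lies at mm9 chr4:88920377-88940557, minus strand and was at 4298, 4347 and 3392 units in the tumours. In the kidneys it was at 1.73, 1.34, 0, 0 and 3.8, 5 reads in all. The ratio of the means was 2923 (95% counting interval 1253 to 9002), where the interval covers counting error only. The locus was not deleted in VM mice. It was at a mean of 53.1 units in VIM tumours, which lack it, and 787 in MYC tumours. VM against VIM gave a log2 change of 6.40 (adjusted p = 0.0024, limma on the tumours of both groups), and VM against MYC gave 4.23 (adjusted p = 0.13, not called). The table holds 1 value for both products of the gene.

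**Figure D3:**
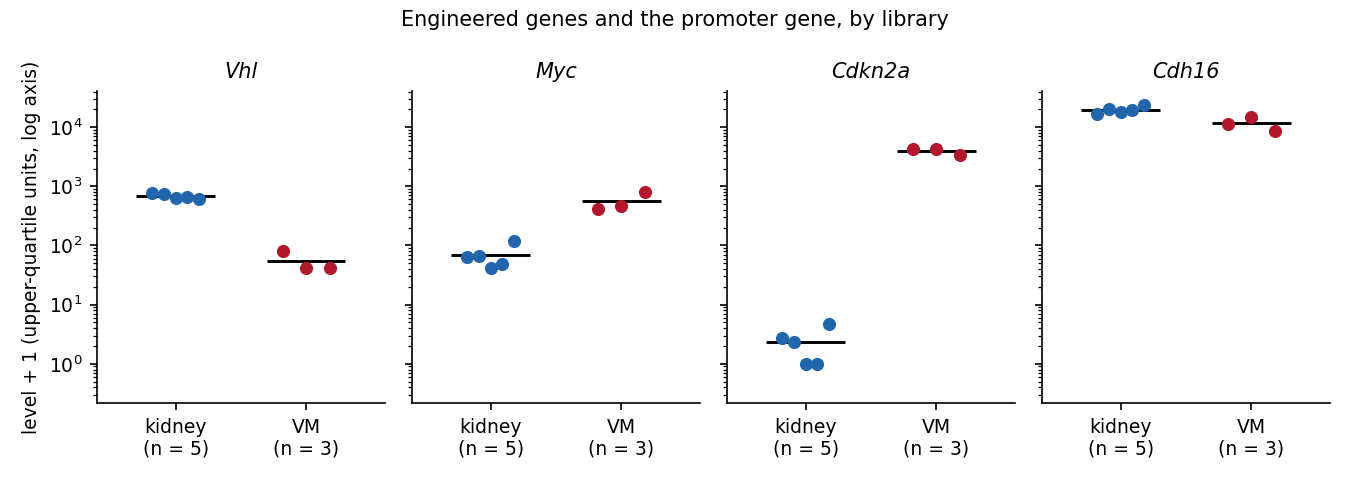
Vhl, Myc, Cdkn2a and Cdh16 in 5 kidney and 3 VM tumour libraries, as level + 1 in upper-quartile units on a log axis, with black bars at the means. Vhl lies lower and Myc and Cdkn2a higher in every tumour than in every kidney, and Cdh16 lies lower in every tumour by less than the threshold for a call.

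HIF target genes were mostly higher. Of 29 tested, 18 were higher and 2 lower, with a median log2 change of 1.46 against −0.06 over all genes, and Epo was too low to test. The share called higher was 17.7% over all genes. Without tumour 3115 the counts were 16 and 3. Several members carry the HIF core ACGTG (searched on both strands, where it reads CACGT on the other) within 250 bases before and 50 after a RefSeq start. This was so for 17 of 22 list members with a promoter in the table (77.3%). It was so for 27.3% of the 11217 tested genes with one and 19.6% of all promoters in the table. Among HIF targets called higher the share was 11 of 14 (78.6%), near that of the whole list. In glycolysis it was 13 of 21, and 10 of 17 among those called higher. The nucleotide, polyamine and one-carbon list, described below, held the core in 10 of 19 (52.6%). A match is a stretch of letters, not a measured binding site, and a gene was counted if any of its starts held a match. Promoter stretches of 4 members of the HIF and glycolysis lists are printed: Slc16a3 and Hk2, the largest rises among glycolysis genes, Egln3, an oxygen sensor that rose in all tumours, and Car9, a textbook target that did not rise. Capitals mark the HIF core, and where a gene has several starts, the start with the most matches was printed. The sequences are from RefSeq (table build GRCm38.p6) and were placed by exact match in mm9, each read 5′ to 3′ on the strand of its gene.
Slc16a3, mm9 chr11:120810261-120810380, plus strand: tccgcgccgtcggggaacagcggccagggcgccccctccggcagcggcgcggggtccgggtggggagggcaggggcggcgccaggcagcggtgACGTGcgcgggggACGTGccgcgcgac
Hk2, mm9 chr6:82724449-82724568, minus strand: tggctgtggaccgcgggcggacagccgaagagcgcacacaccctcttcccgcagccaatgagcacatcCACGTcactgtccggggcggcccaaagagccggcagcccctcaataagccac
Egln3, mm9 chr12:55305012-55305111, minus strand: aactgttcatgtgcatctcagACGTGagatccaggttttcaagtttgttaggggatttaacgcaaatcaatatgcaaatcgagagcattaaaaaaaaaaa
Car9, mm9 chr4:43519778-43519897, plus strand: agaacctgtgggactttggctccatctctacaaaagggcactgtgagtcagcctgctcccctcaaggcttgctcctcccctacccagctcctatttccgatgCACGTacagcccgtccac
The 2 cores of Slc16a3 lie 27 and 14 bases before the start chosen in this way, and that of Car9 lies 18 bases before. The stretch of Egln3 lies farther out, with its core 229 bases before. The letters are thus present in the promoters of genes that moved strongly and of Car9, which was not called.

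The targets include oxygen-sensing enzymes. Egln3, a prolyl hydroxylase that marks HIF for VHL and is itself a HIF target, was at 8108, 4896 and 7253 units in tumours and 388, 404, 570.0, 613 and 369 in kidneys (log2 change 3.85 ± 0.23 (SE), adjusted p = 1.1e-06). Every tumour was at least 4896 units and every kidney at most 613. Egln1, the main hydroxylase in normal oxygen, was at 3828, 2876 and 2768 against 1500, 1562, 1651, 1731 and 1894 units, with no overlap but a log2 change of 0.91, just under the threshold. Among the collagen-modifying enzymes, P4ha2, a prolyl hydroxylase of collagen, was at 4177, 6425 and 3136 against 339 to 435 units (log2 change 3.45). Loxl2, a collagen cross-linking oxidase, was at 6158, 2839 and 2269 against 107 to 247 units (4.46), and Plod2, a lysyl hydroxylase, was also higher (1.46).

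Other targets were higher with different spreads over the tumours. Bnip3, a receptor for the removal of mitochondria, was at 15691, 10235 and 9792 units against 5358, 4257, 3459, 3672 and 3135 in kidneys, and no tumour overlapped a kidney (log2 change 1.57). Ankrd37, an ankyrin-repeat protein, was at 1092, 570.1 and 763 against 9.37 to 16.3 units (log2 change 5.79 ± 0.33 (SE), adjusted p = 8.8e-07). Hilpda, a lipid droplet protein, was at 944, 407 and 731 against 26.8 to 46.7 units, a log2 change of 4.11. Stc2, a secreted glycoprotein, was at 842, 1047 and 582 against 8.65, 8.03, 8.14, 32.1 and 62 units, so that KT-J21 and KT-J22 lay above the other kidneys and far below the tumours. Ndufa4l2, a mitochondrial protein that lowers complex I activity, was at 4945, 239 and 471 units, over 10-fold higher in 3115 than in the other tumours, against 41.5 to 70.8 in kidneys (log2 change 4.01 ± 0.80 (SE), adjusted p = 0.0019).

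Several well-known targets did not rise. Car9, the membrane carbonic anhydrase used as a marker of clear cell carcinoma, was at 46.6, 1652 and 43.2 units in tumours and 196, 371, 296, 191 and 145 in kidneys (log2 change −0.59, adjusted p = 0.66). Tumour 3055 lay above every kidney and the other tumours lay below every kidney, and without 3055 the log2 change was −2.31 and the gene was called lower. Vegfa, the main angiogenic growth factor, was at 2239.7, 2680.4 and 2634 against 4021, 3972, 4168, 4626 and 4144 units. Every tumour lay below every kidney, but the log2 change of −0.74 was under the threshold. Angptl4, an inhibitor of lipoprotein lipase, was at 3316, 418 and 313 against 516 to 1400 units and overlapped. Ak4, a mitochondrial adenylate kinase, was lower, at 2782, 4236 and 3244 against 12502, 14775, 11845, 11140.1 and 11031 units (log2 change −1.85 ± 0.17 (SE), adjusted p = 1.9e-05). Nos3, the endothelial nitric oxide synthase, was also lower, at 26.7, 0 and 3.7 against 41.5 to 134 units, and moved with the endothelial markers given below. Whether fewer cells of a type or less RNA per cell underlies such a fall cannot be told apart in bulk tissue.

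The HIF subunits themselves differed from each other. Epas1, which encodes HIF-2α and is abundant in endothelium and stroma of the kidney, was at 405, 46.4 and 59.2 units in tumours and 1952, 1576, 2427, 2077 and 3439.6 in kidneys (log2 change −4.40 ± 0.61 (SE), adjusted p = 2.0e-04). Hif3a, a subunit with inhibitory forms that is itself a HIF target, was at 1639, 314 and 1239 against 13.8, 24.1, 6.51, 11.7 and 13.9 units (log2 change 5.95 ± 0.58 (SE), adjusted p = 2.2e-05). Hif1a was at 1073, 1189 and 941 against 1424, 1764, 1958, 1794 and 2359 units, lower in every tumour by less than the threshold (log2 change −0.79). The other 7 members, among them the shared partner Arnt (0.73), the asparagine hydroxylase Hif1an (−0.48) and the parts of the VHL ligase, were not called, so 1 of 10 members was higher and 1 lower.

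Glycolysis changed in nearly every step. Of 21 genes of glucose uptake, glycolysis and lactate export, 17 were higher and 1 lower (median log2 change 2.02), and 18 lay above every kidney in every tumour. Slc16a3, the lactate exporter MCT4 (mm9 chr11:120809794-120822182, plus strand), was at 6700.1, 6833 and 6297 units in tumours and 5.76, 5.35, 10.7, 4.18 and 4.45 in kidneys (log2 change 9.93 ± 0.32 (SE), adjusted p = 2.6e-08). The tumours lay within 10% of each other and the kidneys were at a few reads each. Hk2, the hexokinase of embryonic and cancer cells, was at 4325, 4108 and 1821 against 10.4, 12, 13, 13.1 and 13.9 units (log2 change 7.89 ± 0.33 (SE), adjusted p = 1.3e-07). Hk1, the housekeeping hexokinase, moved the other way, at 1054, 367 and 250.3 against 1028, 1071, 1397, 1558 and 2516 units, and only tumour 3115 overlapped the kidneys (log2 change −1.64, adjusted p = 0.01). Eno2, an enolase form best known in neurons, was at 1358, 263 and 258 against 3.26 to 17.7 units (5.74). The positions of Slc16a3 and Hk2 overlap annotated genes on the opposite strand (Csnk1d and Gm17034), and strand use in the authors' counting was not given in the sources used here.

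Abundant enzymes of the pathway were also higher. Pkm2, the pyruvate kinase gene under its older symbol, was at 39261, 41813 and 24900.1 units against 1964, 2084, 2055, 2610.2 and 4128 (log2 change 3.81 ± 0.27 (SE), adjusted p = 3.5e-06). Ldha, lactate dehydrogenase A, was at 48783, 47995 and 48090 against 12526, 13359, 11336, 11834 and 7184 units, with KT-J22 the lowest kidney (log2 change 2.13). Pdk1, which keeps pyruvate out of the tricarboxylic acid cycle, was at 9437, 10804 and 8348 against 763 to 1531 units, a log2 change of 3.22. The phosphofructokinases Pfkl and Pfkp rose (2.82 and 3.01). Slc2a1, the glucose transporter GLUT1, was at 2013, 2976 and 3039 against 512, 564, 704, 768 and 1285 units (1.86). Aldoa, Tpi1, Pgk1, Pgam1, Eno1 and Gpi1 rose by 1.13 to 2.02 on the log2 scale. Gapdh was higher in every tumour, at 2897, 3681 and 2038 against 1420.4, 1809, 2005, 1883 and 1719 units, by less than the threshold.

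Gluconeogenesis, which the proximal tubule performs alongside the liver, moved in the opposite direction. G6pc, the catalytic part of glucose-6-phosphatase, was at 2.66, 10.3 and 7.4 units in tumours and 14303, 10831, 12215, 8835 and 12111 in kidneys (log2 change −10.68 ± 0.32 (SE), adjusted p = 1.8e-08). Fbp1, fructose bisphosphatase, was at 74.6, 75.3 and 454 against 27654, 32468, 29712, 24729.9 and 24539 units (log2 change −7.65 ± 0.51 (SE), adjusted p = 2.3e-06). Pck1, the cytosolic carboxykinase that commits carbon to glucose, was at 373, 858 and 816 against 47254, 44333, 64717, 95231 and 99255 units (log2 change −6.69). Tumour levels of these 3 genes were under 2% of the kidney level in each tumour. Pcx, pyruvate carboxylase, fell too (−4.34), and Pck2, the mitochondrial carboxykinase, was higher, at 1064, 856 and 884 against 272 to 354 units (1.65). In all, 5 of 7 genes were lower and 1 higher. These genes are proximal tubule genes as well, and the markers of that segment fell over a similar range.

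**Figure D4:**
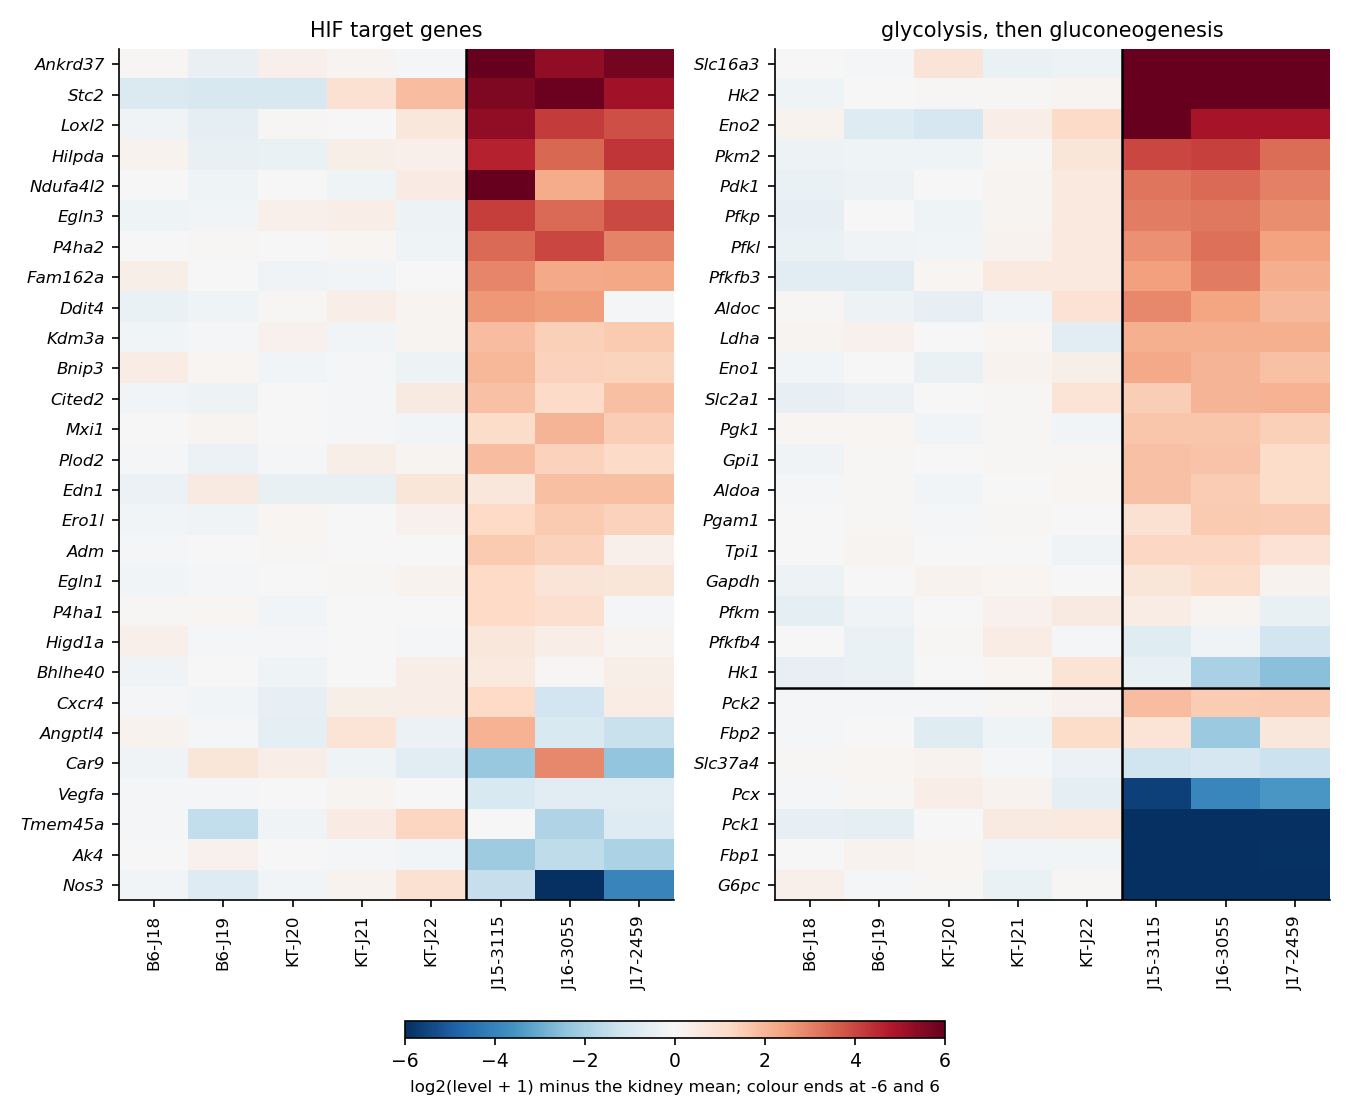
Each library's log2(level + 1) minus the mean of the 5 kidneys, for the HIF targets reported here (left) and glycolysis and gluconeogenesis genes (right), with colour ending at −6 and 6. Slc16a3 and Hk2 are over the end of the scale in all 3 tumours, Car9 is high in 3055 alone, G6pc and Pck1 are under the other end in all 3, and Fbp1 in 3115 and 3055.

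Other tumours of the series were used to see which of these levels differed within the tumours. VM and VIM tumours share the Vhl deletion, whereas MYC tumours keep Vhl, and Vhl was at a mean of 252 units in VIM and 514 in MYC tumours. Against MYC tumours, with the libraries of 1 mouse averaged, limma called 0 of 16167 genes (0.0%), with 2109 at an unadjusted p under 0.05. A fit over all tumours and kidneys together, chosen after seeing the data, called 137 genes higher (0.847%) and 213 lower (1.32%) in VM, so these calls rest on kidneys helping to set the spread. In that fit 8 of 21 glycolysis genes were higher in VM, with Slc16a3 at a log2 change of 5.12, from a mean of 556 units in MYC tumours, and Hk2 at 2.42, from 663. The others were Eno1, Pgk1, Ldha, Aldoa, Tpi1 and Pgam1. It also called 5 of 29 HIF targets higher (Egln3 3.42, Fam162a 2.34, Ak4 2.27, P4ha2 2.14 and Egln1 1.28). Ak4, lower than in kidney, was therefore higher than in MYC tumours, where its mean was 756 units. VM against VIM called 42 of 15411 genes (0.273%), of which Cdkn2a and Hk2 (2.63, from a mean of 515 units in VIM) belong to the lists described so far. These comparisons share the VM libraries.

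The MYC network holds partners and competitors of MYC. Max, the partner with which MYC binds DNA, was at 1824, 1719.6 and 1691 units against 697, 756, 656, 603 and 763 (log2 change 1.33 ± 0.12 (SE), adjusted p = 1.7e-05). Mxd3, a competitor for Max that is expressed in dividing cells, was at 105, 112 and 329 against 4.39 to 14.7 units (log2 change 4.09), and Mxi1, also a HIF target, was higher (1.54). Mycn, the form used in kidney development, was at 5.33, 2.06 and 2.47 against 46.7 to 61.9 units (−3.76). Mlx was lower (−1.20) and Mga higher (1.24). In all 4 of 12 members were higher and 2 lower.

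Ribosome biogenesis genes rose almost as a block. Of 30 tested, 28 were higher and none lower, with a median log2 change of 2.19, and 29 lay above every kidney in every tumour. Npm1, a nucleolar chaperone, was at 18889.5, 14729.9 and 15642 units in tumours and 1782, 1724, 1658, 1454 and 1834 in kidneys (log2 change 3.28 ± 0.14 (SE), adjusted p = 1.3e-07). Ncl, nucleolin, was at 17887, 21959.8 and 16259 against 3109, 4049.5, 4932, 4149 and 5093 units (2.14). Nop56, a core protein of the particles that methylate ribosomal RNA, was at 2373, 2845 and 4143 against 261 to 320.1 units (log2 change 3.42 ± 0.18 (SE), adjusted p = 6.0e-07), and Ppan, needed for the large subunit, rose by a similar amount (3.29). The exceptions were Ubtf, which was higher by less than the threshold (0.70), and Utp20, at 940.1, 1200 and 1256 against 1413, 1803, 1559, 1004 and 1026 units.

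In nucleotide, polyamine and one-carbon synthesis 14 of 23 genes were higher and 2 lower (median 1.74). Phgdh, which starts serine synthesis, was at 5015, 3643 and 4974 units against 48.4, 22.8, 27.7, 48.2 and 65.8 (log2 change 6.79 ± 0.34 (SE), adjusted p = 4.3e-07). Mthfd1l, a mitochondrial folate enzyme, was at 828, 877 and 963 against 12 to 22.5 units (5.60). Cad, which starts pyrimidine synthesis, was at 1095, 1889.7 and 2128 against 93.4 to 220.1 units (log2 change 3.68 ± 0.31 (SE), adjusted p = 1.0e-05). Srm, spermidine synthase, was at 4056, 4319.6 and 4453 against 341, 355, 388, 342 and 320.1 units, with each group within a narrow range (3.61). Odc1, the step before it and a textbook MYC target, was lower, at 3144, 3387 and 6631 against 55057, 43252, 39369.7, 35996 and 6553 units. Its kidney level is androgen-dependent, and KT-J22 fell within the range of the tumours.

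The E-box CACGTG contains the HIF core and reads the same on both strands. It was found in 5 of 25 ribosome biogenesis genes with a promoter in the table and in 5 of 19 of the nucleotide list (26.3%). The shares were 10.9% of tested genes and 7.15% of all promoters. Among members called higher they were lower than over these whole lists, 4 of 23 (17.4%) and 2 of 11 (18.2%). Among HIF targets the E-box was found in 3 of 22 and among glycolysis genes in 3 of 21. The promoters of Ldha and of Cdk4, a cyclin-dependent kinase of G1, are printed because they hold 2 and 4 E-boxes, in capitals. For each gene the start with the most E-boxes was printed.
Ldha, mm9 chr7:54100974-54101173, plus strand: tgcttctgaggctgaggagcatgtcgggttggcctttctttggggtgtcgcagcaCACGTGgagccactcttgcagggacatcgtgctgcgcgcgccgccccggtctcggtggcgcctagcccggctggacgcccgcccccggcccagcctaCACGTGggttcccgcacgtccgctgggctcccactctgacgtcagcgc
Cdk4, mm9 chr10:126500391-126500590, plus strand: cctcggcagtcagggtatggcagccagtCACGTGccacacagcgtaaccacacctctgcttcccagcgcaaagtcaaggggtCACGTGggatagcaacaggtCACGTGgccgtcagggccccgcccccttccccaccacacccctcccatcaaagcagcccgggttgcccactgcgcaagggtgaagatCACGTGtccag
Cdk4 was at 6402, 5775 and 7397 units in tumours and 1489.6, 1576, 1142, 1175 and 1223 in kidneys (log2 change 2.31 ± 0.15 (SE), adjusted p = 2.1e-06), with Ldha as given above.

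Every one of the 26 mitosis genes tested was higher, with a median log2 change of 5.34 and no overlap between groups. Mki67, the proliferation antigen, was at 1965, 3440.2 and 4281 units in tumours and 81.3, 61.6, 122, 70.1 and 83.5 in kidneys (log2 change 5.22 ± 0.29 (SE), adjusted p = 8.0e-07). Top2a, the topoisomerase of dividing cells, was at 1193, 3034 and 4457 against 30.7 to 65.1 units (5.86). Cdk1, the kinase that starts mitosis, was at 1692, 2224 and 2080.2 against 29.2 to 47.2 units (log2 change 5.75 ± 0.24 (SE), adjusted p = 1.4e-07). The summed level of the list was 18339, 27184 and 42237 units in tumours 3115, 3055 and 2459, against 662 to 1020 in the kidneys. The tumours thus differed among themselves by over 2-fold, with 3115 the lowest and 2459 the highest. DNA replication genes followed the same order, at 12169, 25031 and 32910 units against 3611 to 3935.

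Of 30 DNA replication genes 28 were higher (median 2.60) and none lower. The helicase gene Mcm5 was at 352, 1404 and 1655 units against 81.3, 58.9, 61.9, 54 and 69.6 (log2 change 3.84 ± 0.46 (SE), adjusted p = 8.0e-05), lowest in 3115. Pole, a replicative polymerase, was at 165, 566 and 861 against 5.19 to 13.9 units (5.33). Rrm2, the ribonucleotide reductase subunit of S phase, was at 807, 2045 and 3853 against 55.4 to 116 units (4.43). Mcm10 and Gins3 were not called, and without tumour 3115 all 30 were higher.

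The genes that govern entry into the cycle were mixed, with 9 of 17 higher and 2 lower. Ccne1, cyclin E, was at 324, 534 and 800.2 units against 5.19, 6.69, 1.63, 10.2 and 3.8 (log2 change 6.47 ± 0.53 (SE), adjusted p = 7.8e-06). E2f1 was at 248, 400 and 672 against 30.8 to 77.4 units (3.10), and E2f8 rose by 4.36. Ccnd1, cyclin D1, was lower, at 447, 91.2 and 647 against 3795, 6379, 7759, 2671 and 4761 units (log2 change −3.99 ± 0.58 (SE), adjusted p = 2.8e-04), and every tumour lay at least 4-fold below every kidney. Ccnd2 was lower too (−2.32). The D-type cyclins partner CDK4 and CDK6, which INK4A inhibits, and Cdk6 was at 111, 181 and 462 against 64.5 to 132 units (not called).

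Against 41.0% of all genes called and 17.7% called higher, 3 of 7 CDK inhibitors were higher (42.9%). Beside Cdkn2a these were its neighbour Cdkn2b, at 346, 319 and 236 units against 3.46, 4.02, 3.26, 1.46 and 6.33 (log2 change 6.07 ± 0.44 (SE), adjusted p = 3.4e-06), and Cdkn1a, the p53 target p21. Cdkn1a was at 5929, 265 and 449 against 179.9, 214, 73.3, 112 and 164 units (log2 change 2.67, adjusted p = 0.023), with 3115 over 10-fold above both other tumours, and the call was lost without KT-J20. Of the other p53 targets, Zmat3 was at 7839.9, 773 and 566 units and Eda2r at 1848, 20.6 and 38.2, both highest in 3115 and neither called. Trp53 itself was at 1230.4, 235 and 705 units against 369 to 449.5, lowest in 3055. Over the list of 23, 7 were higher and 3 lower, and the share called, 43.5%, was near the 41.0% of all genes. Without tumour 3115 the counts were 6 and 7, and without 3055 1 was lower. Called members included the pro-apoptotic genes Pmaip1, at 2762, 4116 and 2504 against 249.6 to 365 units (3.35), and Bbc3, at 683, 313 and 299.6 against 11.7 to 41.5 (3.92). Ccng1 was lower (−1.99).

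Segment by segment, the genes of the mature nephron were lower. Of 40 proximal tubule genes 39 were lower, against 23.2% of all genes, and the summed level of the list was 75504, 54513 and 83527 units in the tumours and 1184430 to 2534910 in the kidneys. The phosphate transporter Slc34a1 was at 212, 1605 and 2051 units against 105882, 126600, 120476, 106061 and 86261 (log2 change −6.93 ± 0.62 (SE), adjusted p = 1.4e-05), about 10-fold lower in 3115 than in 2459. Lrp2, the endocytic receptor megalin, was at 4473, 2757 and 4021 against 33898, 37204, 35143, 37428 and 53957 units (log2 change −3.41 ± 0.23 (SE), adjusted p = 2.3e-06), and its partner Cubn was at 216, 23.7 and 171 against 7593 to 12982 (−6.55). The organic anion transporter Slc22a6 was at 0, 1.03 and 3.7 against 28564, 31343, 32149.8, 33809 and 13122 units, a ratio of the means of 17630.5 (95% counting interval 6886 to 64707). Slc4a4, the basolateral bicarbonate transporter, kept a sizeable level, at 11110.5, 2754 and 9324 against 22182 to 28959 units. Slc7a8, an amino acid transporter, was the only member not lower, at 6221, 1668 and 1543 against 1718 to 4529 units.

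Of the defining markers of the distal segments, Umod, Slc12a1, Kcnj1, Slc12a3, Pvalb and Aqp2 were at 12.4 units or less in every tumour. The defining markers Calb1, Scnn1b and Atp6v1g3 are not reported here, and Atp6v1b1, given below, is not a defining marker. The summed levels of the lists were above that level, and the genes that carry them are not all named. The sums were 2476 to 5461 units in tumours against 90111 to 208366 in kidneys for the thick ascending limb, 1983 to 3594 against 69983 to 107323 for the distal convoluted tubule and 770.1 to 2152 against 23796 to 45338 for the collecting duct. Umod, uromodulin of the thick ascending limb, was at 0, 1.03 and 0 units against 40327, 51458, 51876, 62219 and 91620.5, 1 read over the 3 tumours and a ratio of 173150 (95% counting interval 31077 to 6839060). Slc12a1, the transporter blocked by loop diuretics, was at 3.99, 12.4 and 1.23 against 7709 to 28570.5 units (log2 change −11.29 ± 0.56 (SE), adjusted p = 3.9e-07). Kcnj1, its partner potassium channel, was at 0 in every tumour and at least 1620.5-fold lower than in kidney, taking 3 reads in a library as the floor. For the distal convoluted tubule, Slc12a3, the thiazide-sensitive transporter, was at 1.33, 0 and 1.23 against 14073 to 25046 units, and Pvalb was at 0 in every tumour against 337 to 608. For the collecting duct, Aqp2, the vasopressin-regulated water channel, was at 0 in every tumour and at least 522-fold lower, and Atp6v1b1, the proton pump subunit of intercalated cells, was at 0 and at least 463-fold lower. The counts called lower were 13 of 15 for the thick ascending limb, 8 of 9 for the distal convoluted tubule and 20 of 20 for the collecting duct. Their median log2 changes of −7.83, −8.47 and −8.43 became −6.24, −6.79 and −7.39 when genes with at most 3 reads in every tumour were set at the floor of 3 reads. With the B6 kidneys alone, all 12 collecting duct genes tested and 4 of 6 of the distal convoluted tubule were called lower. Cldn14, a claudin counted with the thick ascending limb, was higher, at 905, 141 and 412 units against 3.46, 0, 3.26, 0 and 7.59 (7.09).

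Podocyte genes were measured as markers of the glomerulus. Nphs1, nephrin of the filtration slit, was at 0 in every tumour, against 175, 274, 410.4, 433 and 868 units in the kidneys. KT-J22 was the highest kidney. Of 9 podocyte genes 6 were lower and none higher, and with the B6 kidneys alone 2 of 7 were lower.

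The transcription factors of renal epithelium were lower with few exceptions, 19 of 22 against 1 higher, and 12 of 20 lower with the B6 kidneys alone. Pax8, which marks renal epithelium and its tumours, was higher, at 2606, 2814 and 1825 units against 898, 1116, 1217, 1036 and 1147 (log2 change 1.14 ± 0.17 (SE), adjusted p = 3.0e-04). Its relative Pax2 was at 3.99, 0 and 0 against 79.6, 72.3, 83.1, 96.4 and 151 units, a ratio of 72.4 (95% counting interval 24.8 to 351). Hnf4a, the factor of the proximal tubule, was at 1829.6, 4633 and 2861 against 14259.5, 16846, 17332, 16870.1 and 15099 units (log2 change −2.47 ± 0.26 (SE), adjusted p = 3.6e-05). Pax8 and Cdh16, genes of renal epithelium, were thus present in every tumour, though Cdh16 lay below every kidney. Most other factors of this list and the markers of the kidney segments were lower.

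**Figure D5:**
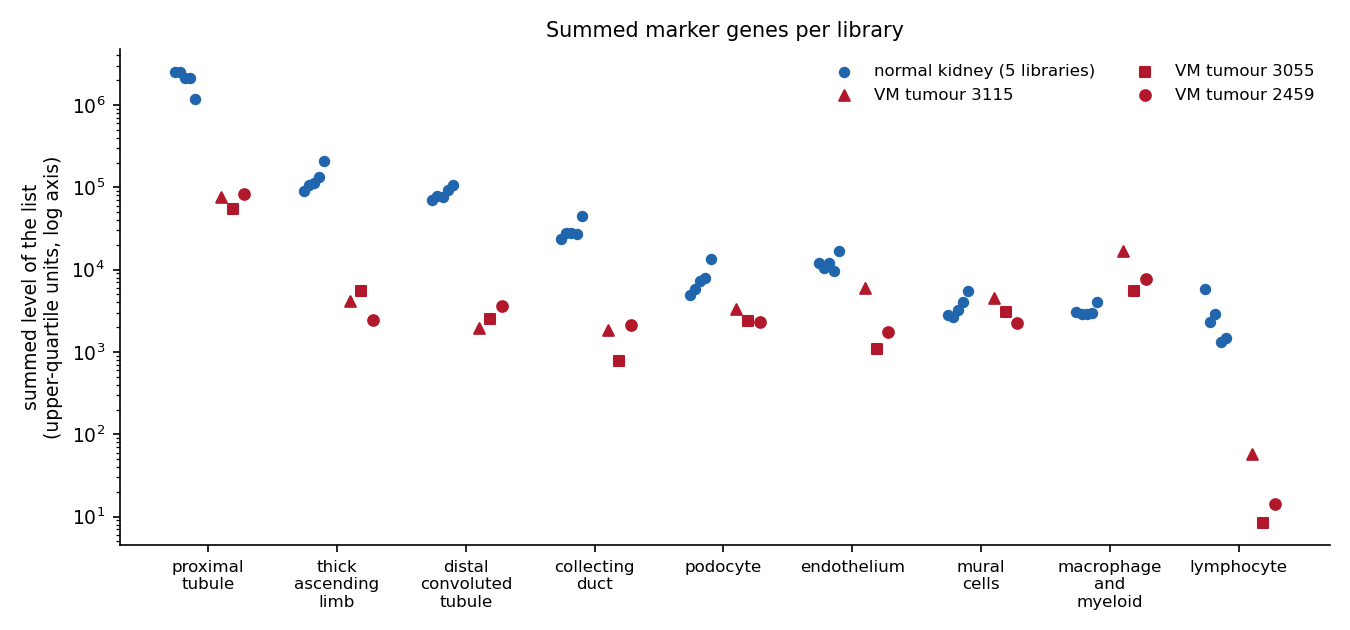
Summed level of 9 marker lists in each library, in upper-quartile units on a log axis, for 5 kidneys (blue) and 3 VM tumours (red, a symbol for each tumour). Tubule, podocyte, endothelial and lymphocyte sums lie lower in every tumour than in every kidney, and the myeloid sum lies higher.

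Genes known from injured and regenerating tubules were higher in 14 of 20 cases and lower in 3, or 1 without KT-J21 and KT-J22 (median 2.92). Havcr1, the kidney injury molecule KIM-1, was at 5619, 3782 and 16417 units against 336, 182, 14.7, 42.3 and 8.86 (log2 change 7.06 ± 1.11 (SE), adjusted p = 4.4e-04). The B6 kidneys held more than the KT kidneys and less than any tumour. Spp1, osteopontin, was at 235375, 168543 and 147825 against 10694, 11760.4, 8958, 14489 and 38220.1 units (log2 change 3.64 ± 0.45 (SE), adjusted p = 1.0e-04). Krt20 was at 302, 237 and 2745 against 1.46 to 6.69 units (7.17), highest in 2459. Sox9, a factor of tubule repair, was at 268, 109 and 78.9 against 8.14 to 18.7 units (3.14), and Cd44 was at 1148, 957 and 2746 against 48.2 to 98.7 (4.39). Vcam1 was at 286, 521 and 517 against 177 to 399.7 units and not called. The simple-epithelium keratins Krt7, at 13.3, 0 and 8.63 against 926 to 2092 units, and Krt8, at 301, 46.4 and 1578 against 1618 to 2106, were lower, as was Clu (−1.93).

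Cadherins and genes of epithelial to mesenchymal transition split. Cdh1, E-cadherin, was at 329, 274 and 878 units against 2600.3, 2818, 3326, 3775 and 4372 (log2 change −2.95 ± 0.35 (SE), adjusted p = 7.3e-05). Cdh2, N-cadherin, was lower as well, at 2.66, 0 and 4.93 against 93.4, 115, 119, 75.9 and 60.7 units (log2 change −5.03 ± 0.58 (SE), adjusted p = 6.5e-05). Cdh6, the cadherin of the developing proximal tubule, was higher, at 638, 749 and 635 against 12.1, 14.7, 19.5, 42.3 and 237 units, with KT-J22 the highest kidney (4.32). Epcam, an adhesion molecule of the distal nephron, was at 6.66, 5.15 and 6.17 against 758, 830.0, 881, 1248 and 1996 units (log2 change −7.26 ± 0.33 (SE), adjusted p = 2.3e-07). Among the transcription factors, Zeb2 was higher (1.14, not called without tumour 3115) and Zeb1 and Snai2 lower (−1.73 and −3.85). Vim, vimentin, was at 1309, 707 and 1238 against 417, 527, 562, 537 and 831 units, a log2 change of 0.90 under the threshold.

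Of 18 endothelial genes 14 were lower and none higher (median −3.08), and without tumour 3115 the count was 17. The VEGF receptor Kdr was at 232, 13.4 and 40.7 units against 888, 858, 1289.9, 704 and 1184 (log2 change −4.21 ± 0.71 (SE), adjusted p = 6.9e-04). Pecam1 was at 598, 91.8 and 148 against 825, 684, 878, 768 and 1307 units (log2 change −2.11 ± 0.51 (SE), adjusted p = 0.0056). Emcn, of fenestrated and venous vessels, was at 578, 64.9 and 182 against 964 to 1502 units (−2.64). In each case 3115 was the highest tumour and 3055 the lowest. Of 9 mural cell genes 6 were lower, 3 with the B6 kidneys alone. Cspg4, which marks pericytes but is made by other cells too, was higher, at 2577, 2561 and 1430.3 against 246 to 586 units (2.39), while Pdgfrb was lower (−2.41).

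Fibroblast and matrix genes showed no common direction. The collagen gene Col1a1 was at 239.7, 235 and 243 units against 93.4, 89.7, 184, 331 and 406 and Col3a1 at 449, 111 and 302 against 304, 248, 467, 782 and 1032, and both overlapped. Postn, periostin, was at 5149, 96.9 and 83.8 against 2.68 to 13.1 units (log2 change 5.52 ± 1.21 (SE), adjusted p = 0.0033), over 50-fold above the other tumours in 3115. Timp1, a protease inhibitor, was at 228, 179 and 150.4 against 1.63 to 13.9 units (4.74). Pdgfra was lower (−5.13). The counts were 3 higher and 3 lower of 17 (35.3% called, against 41.0% of all genes). They were 2 and 5 without tumour 3115, and 5 and 1 without kidneys KT-J21 and KT-J22.

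Of 18 macrophage and myeloid genes 6 were higher and none lower (10 higher with edgeR). The share called was 33.3%, against 41.0% called and 17.7% called higher over all genes. The summed level was 17061, 5518 and 7741 units against 2876 to 4072. Cd14, a co-receptor for bacterial lipid, was at 1823, 1554 and 1238 units against 91.7, 89.7, 70.0, 81.8 and 104 (log2 change 4.12 ± 0.20 (SE), adjusted p = 4.1e-07). Lyz2, lysozyme, was at 5539, 1325 and 2234 against 455, 449.8, 287, 267 and 316 units (2.87), and Cd68, a lysosomal protein of macrophages, was at 707, 342 and 355 against 27.7 to 43 (3.70). Csf1r, the receptor that defines the lineage, was at 1308, 448 and 629 against 436 to 1498 units and overlapped. Arg1, arginase, was at 38.6, 108 and 403 units against 4 reads over the 5 kidneys, a ratio of 156 (95% counting interval 60.8 to 571).

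Lymphocyte genes were lower in 14 of 18 cases at low levels, 8 of 15 with the B6 kidneys alone, 5 of 5 tested when genes had to average 10 units, and 5 of 18 with a pseudocount of 10. The summed level was 57.9, 8.40 and 14.2 units in tumours and 1335 to 5826 in kidneys, where Igj, the joining chain of plasma cells, made up most of it at 5637, 2120.5, 2782, 1220.4 and 1216 units. Igj was at 9.32, 2.06 and 1.23 units in tumours (log2 change −9.04 ± 0.61 (SE), adjusted p = 2.3e-06). Cd8a was at 2.66, 0 and 0 against 50.2, 28.1, 26.1, 17.5 and 39.2 units and Cd3e at 3.99, 0 and 0 against 1.73, 14.7, 1.63, 5.84 and 17.7, the latter not called. Setting genes with at most 3 reads in every tumour at the floor moved the list's median log2 change from −2.51 to −0.997. Ptprc, carried by all leukocytes, was at 132, 28.9 and 60.4 against 346, 325, 313, 216 and 342 units (log2 change −2.29 ± 0.42 (SE), adjusted p = 0.0012). Of the 7 genes shared by leukocytes 3 were lower, 6 without tumour 3115 and 1 without any of 3055, 2459, B6-J18, B6-J19 or KT-J22. The share called, 42.9%, was near the 41.0% of all genes, of which 23.2% were lower.

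Antigen presentation and interferon genes were lower in 18 of 22 cases and higher in none (median −2.26), 12 with the B6 kidneys alone. Cd74, the invariant chain of class II molecules, was at 695, 77.3 and 118 units against 4171, 5352, 4878, 3215 and 5059 (log2 change −4.58 ± 0.58 (SE), adjusted p = 1.2e-04). H2-Aa, a class II chain, was at 446, 38.1 and 74 against 1642 to 2387 units (−4.28), and Ciita, the switch of class II genes, was lower (−4.37). The class I light chain B2m was at 4403, 1978 and 2681 against 6234, 8715, 7651, 4807 and 8458 units (−1.29). Tap1, the peptide pump, was at 192, 83.5 and 9.86 against 236 to 388 units and Psmb9, an immunoproteasome subunit, at 36, 16.5 and 1.23 against 68.6 to 142, each lowest in 2459. H2-K1 overlapped, at 5782, 3246 and 1829.8 against 3131 to 5244 units. Class II genes are made by leukocytes and by tubule cells, and their sources were not tested.

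Genes of other tissues were checked. Haemoglobin transcripts (Hba-a2) were at 4304, 477 and 503 units against 6554, 2653, 3664, 5345 and 2206, so blood was highest in 3115 among tumours. The adipocyte genes Adipoq and Cfd were at 14.6, 1.03 and 2.47 and 181, 0 and 2.47 units, highest in 3115. Of the lists behind these genes, 3 of 5 blood genes tested were lower and 1 of 5 adipocyte genes, Adipoq, was higher. The blood count was 1 with the B6 or the KT kidneys alone, in one fit over all tumours and kidneys, with edgeR, without moderation, with quantile normalization, and without any of 3055, 2459, B6-J18, KT-J20 or KT-J21. The adrenal genes Cyp11b1, Cyp11b2 and Nr5a1 were at 0 in all tumours. Star, the carrier of cholesterol into mitochondria, was at 83.9, 141 and 62.9 against 62.3, 54.9, 71.7, 71.5 and 78.4 units and not called. Of 3 adrenal genes tested 1 was higher (33.3% called, against 41.0% of all genes). This was the steroid dehydrogenase Hsd3b1, at 25.3, 5.15 and 4.93 against 1.73, 5.35, 1.63, 0 and 1.26 units. Immediate early and heat shock genes, which respond to handling as well as growth signals, were higher in 11 of 17 cases. Fos was at 230.4, 361 and 446 units against 8.65, 6.69, 14.7, 19 and 56.9 (log2 change 4.31 ± 0.62 (SE), adjusted p = 2.7e-04), with KT-J22 the highest kidney, Junb was at 2169, 1827 and 1629 against 141 to 325 (3.11) and Hspb1 at 489, 652 and 1303 against 35.8 to 89.7 (3.64). Their part in the other results was not tested.

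In the tricarboxylic acid cycle 5 of 18 were lower (Pdha1, Sucla2, Ogdh, Sdha and Sdhb) and none higher. This share was near the 23.2% lower over all genes and under the 41.0% called. Pdha1, the gate from pyruvate into the cycle, was at 4657, 4901 and 4207 units against 13382, 14861, 15548, 15754 and 14534 (log2 change −1.69 ± 0.14 (SE), adjusted p = 7.3e-06). Of 25 oxidative phosphorylation genes 4 were lower, 2 without tumour 2459, and none higher. The share lower in this list was under the 23.2% of all genes, so the falls named below are single genes. Ndufv1, a complex I subunit, was at 1878, 3512 and 2728 against 6938, 7889, 7127, 6924 and 5913 units (log2 change −1.40 ± 0.20 (SE), adjusted p = 2.3e-04). Ndufa4, of complex IV and a relative of Ndufa4l2, was at 5567, 4228 and 6343 against 25315, 17673, 13316, 14492 and 10721 units (−1.56). The lists' median log2 changes of −0.46 and −0.42 became 0.02 and 0.23 under quantile normalization, so no direction is given for either list as a whole.

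Fatty acid oxidation and peroxisome genes were lower in 14 of 23 cases and higher in none (median −1.51), and the count was 19 without tumour 3115. Ppara, the receptor that controls the pathway, was at 165, 122 and 289.8 units against 3289, 3627, 4003, 3564 and 3847 (log2 change −4.34 ± 0.24 (SE), adjusted p = 6.9e-07). Ehhadh, a peroxisomal enzyme, was at 533, 685 and 975 against 15912, 15277, 16164, 22929.9 and 13689 units (−4.54), and Cat, catalase, was at 2752, 2319 and 1509 against 22147 to 29399 (−3.56). Cpt1a, the entry point for long chains into mitochondria, was at 2939, 2442 and 1801 against 8471 to 12119.7 units (−2.08).

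Of 20 lipid synthesis genes 6 were higher and 2 lower, a share near the 41.0% of all genes. Fasn, fatty acid synthase, was at 6159.8, 6661 and 5137 units against 843, 559.6, 1443, 1396 and 1426 (log2 change 2.48 ± 0.31 (SE), adjusted p = 1.1e-04). Scd2, a desaturase, was at 18494, 18855 and 20021 against 1539.8, 1758, 2508, 1832 and 3717 units (log2 change 3.15 ± 0.26 (SE), adjusted p = 8.9e-06), while its relative Scd1 was at 5997, 2803 and 3529 against 1354, 675, 1906, 3614 and 29359.9, set apart by KT-J22, and was not called. Elovl6, an elongase, was higher (2.69) with tumour 3115 overlapping KT-J22. Lpl, lipoprotein lipase, was at 253, 415 and 509 against 29709, 20995, 25482, 39574 and 12832 units (log2 change −5.99 ± 0.35 (SE), adjusted p = 1.0e-06), and in VM tumours it was also lower than in VIM tumours (mean 2239 units, log2 change −2.52, adjusted p = 0.035). Plin2, the coat protein of lipid droplets, was at 1575, 713 and 1032 against 1041 to 1581 units and overlapped.

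Of 15 genes of glutamine and amino acid transport 8 were higher and 2 lower. Slc7a5, the light chain of the leucine transporter, was at 2787, 2658 and 1820.0 units against 45, 40.2, 44, 36.5 and 68.3 (log2 change 5.67 ± 0.26 (SE), adjusted p = 2.3e-07). Its heavy chain Slc3a2 was not called (0.38). Slc1a5, a glutamine transporter, was at 3137, 3609 and 4208 against 408 to 973 units (2.62), and Asns, asparagine synthetase, was at 1326, 2047 and 1824 against 48.2 to 107 (4.61). Of 10 iron genes 3 were higher (Cp, Trf and Hmox1) and 2 lower. Fth1, ferritin heavy chain, was at 17514, 24373 and 29479.7 against 126953, 111774, 94585, 99305 and 68426 units (log2 change −2.08 ± 0.32 (SE), adjusted p = 3.8e-04).

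Of 21 growth factor receptors and ligands 7 were lower and 1, Ret at a few units, higher. The share called, 38.1%, was near the 41.0% of all genes. Egfr was at 252, 263 and 372 units against 1235, 1434, 1432, 1207 and 1163 (log2 change −2.14 ± 0.16 (SE), adjusted p = 5.0e-06), Erbb3 at 193, 306 and 239 against 1141 to 1583 (−2.38) and Fgfr1 at 87.9, 28.9 and 11.1 against 692 to 1294 (−4.85). The ligand Egf, made by the thick ascending limb, was at 43.9, 514 and 19.7 against 19513, 23602, 27388, 33368 and 59309.5 units (−8.59). Axl, a receptor that HIF can induce, was at 731, 638 and 467 against 407 to 727 units and not called. In the fit over all tumours and kidneys, Egfr, Erbb3, Fgfr1 and Fgfr4 were also lower in VM than in MYC tumours.

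Among fetal and imprinted growth genes 4 of 14 were higher and 2 lower, a share called (42.9%) near the 41.0% of all genes. H19, an imprinted RNA, was at 1088, 7.22 and 69.1 units and at 0 in every kidney, at least 74.8-fold higher, and over 10-fold higher in 3115 than in the others. Igf2bp3, an RNA-binding protein of fetal tissue, was at 537, 80.4 and 334 against 11.4 to 24.2 units (3.60), and Hmga1 was at 549.9, 1188 and 1792 against 86.5 to 156 (3.13). Peg3 was lower, at 5.33, 0 and 1.23 against 108 to 355 units. Grb10, an adaptor that dampens insulin signalling, was at 156, 16.5 and 5582 units against 721 to 988, with 1 tumour above and 2 below all kidneys.

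The 12 largest rises included Cdkn2a and Slc16a3 and spanned several functions. Epha8, an ephrin receptor of the nervous system, was at 3136, 2774 and 811 units against 3 reads over the 5 kidneys, a ratio of 2293 (95% counting interval 785 to 11118). Gpnmb, a glycoprotein of lysosome stress and of tumours with active MIT factors, was at 14747, 2257 and 1353 against 3.46, 1.34, 3.26, 5.84 and 6.33 units (log2 change 9.57 ± 0.73 (SE), adjusted p = 5.1e-06). Gli2, a transcription factor of hedgehog signalling, was at 1262, 1241 and 1058 against 0 to 10.2 units (log2 change 8.57 ± 0.69 (SE), adjusted p = 6.8e-06). The developmental factors Barx2 (341, 440.2 and 1131 units) and Zic2 (387, 565 and 344) had 1 read each over the kidneys. Lgi2 (1662, 1674 and 2117), Prtn3 (575, 2049 and 637), 4930583H14Rik (1862, 318 and 954), Nlrp10 (2549, 910.3 and 2464) and Lingo3 (365, 385 and 303) made up the rest. That all 12 lay above every kidney in each of the 3 tumours follows from the rule that picked them.

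The 12 largest falls were those of tubule transporters and enzymes of the mature kidney. Kap, the gene with the largest fitted fall, was at 3.99, 1.03 and 3.7 units in tumours, a ratio of the means of 292220 (95% counting interval 141828 to 726822). Klk1, tissue kallikrein of the connecting segment, was at 0 in every tumour against 20564, 20979, 20234, 28964 and 34349 units, at least 6263-fold lower. Akr1c21, a steroid dehydrogenase, was at 1.33, 0 and 2.47 against 29768 to 66353 units. Ces1f, a carboxylesterase, was at 0 in every tumour against 3025 to 24226, and the glucuronosyltransferase Ugt3a2 was at 0, 27.8 and 0 against 28959 to 45891. The dicarboxylate carrier Slc13a3 was at 1.33, 2.06 and 0 against 19132 to 25911 units, and Cyp2a4, a steroid hydroxylase, was at 0, 0 and 1.23 against 5421 to 15718. Slco1a1 and Slc7a13, both androgen-dependent, were at 1.33, 0 and 0 and 0, 0 and 1.23 units, and their kidney levels in KT-J22, 1073 and 865, were still far above the tumours. Umod, Slc22a6 and Slc12a3 are given above. Of 12 androgen-related genes 9 were lower and none higher, against 23.2% lower over all genes. The list also holds Cyp4a14 and Prlr, which were highest in KT-J22, the kidney where Kap was lowest.

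The 3 tumours differed most in a few genes. Tdrd1, a germ cell gene, was at 0, 1.03 and 813 units and at 0 in every kidney. Sssca1 was at 0, 0 and 598 units, also at 0 in every kidney. Hoxc10, a positional factor, was at 189, 601 and 0 against 222 to 272 units. Dlk1, an imprinted gene of fetal tissue, was at 597, 79.4 and 0 against 0 to 4.89 units, and Itm2a was at 1507, 20.6 and 0 against 12 to 53.1. Each of these 5 was over 500 units in a tumour and at 0 or a few reads in another, and with 1 library per tumour, the spread between mice and that between samples of a tumour cannot be told apart.

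Against VIM tumours, which carry the same Vhl and MYC alleles and lack Ink4a/Arf from the germline, 12 genes were higher and 30 lower in VM tumours. The largest rises, beside Cdkn2a, were Kif26a, at 1292, 1865 and 1148 units against a VIM mean of 8.73 (log2 change 7.22), Grid1, at 562, 392 and 138 against 5.41 (5.66), and Col16a1, at 4477, 1059.8 and 1119.6 against 97.9 (4.14). The largest falls were Cyp2a5, at 0, 0 and 3.7 against 1425 units, Mettl7a2, at 7.99, 0 and 0 against 955, Kap, at a VIM mean of 871, and Cyp2e1, at 17.3, 1.03 and 3.7 against 929.7. All 4 are genes of the normal kidney, and admixed kidney tissue in the VIM samples was not tested. The count fell to 2 without 1 VIM tumour and 3 without another.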

How the data were processed

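Tumour and kidney RNA was sequenced as paired ends from stranded mRNA libraries. Per the study's methods, reads were aligned to mm9 with MapSplice and estimated per gene with RSEM, and the submitters' processing notes name Picard 1.64, SAMtools and RSEM. The deposited values are a signal per gene that the authors scaled so that the upper quartile of genes above 0 is 1000 units. This quartile lay between 998 and 1000 units in the 8 libraries. Totals therefore do not give depth, and the worth of 1 read was recovered from the steps of the low values, of which 94.8% to 95.9% under 20 reads came out whole within 0.02. The strand setting of the counting and the ages of the mice were not given in the sources used here. Per the study's methods, alignments holding indels, large inserts or a mapping quality of zero were removed before estimation. How this acted on reads shared by near-identical genes was not tested. Of 21705 genes, 4421 were at 0 in all 8 libraries.

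Genes above 0 in at least 3 libraries were tested with limma 3.58.1 in R 4.3.3 (moderated with a trend) on log2(value + 1), two-sided, over the 3 VM tumours and 5 kidneys, with Benjamini-Hochberg adjustment over all genes tested. A call needed an adjusted p under 0.05 and an absolute log2 change over 1. VM tumours were compared with VIM tumours and with MYC tumours in fits of those tumours alone, with both libraries of 1 MYC mouse averaged. Fold changes on this scale understate the change of low genes. Where a group held at most 3 reads in every library, the ratio of means is given with an exact 95% Poisson interval, and where it was at 0 throughout, a bound against 3 reads. Intervals and floors cover counting error only. The procedure was tested on simulated data for VM tumours against kidneys. Of 200 changed genes it recovered 166 at 4-fold among 15853 genes tested and 196 at 8-fold among 15859. It also called 10 and 9 unchanged genes, and with no changed gene it called 0 of 15832. The changed genes averaged at least 50 units, and both groups were given the same spread, unlike the tumours and kidneys here. These rates therefore need not hold for the real data, where 41.0% of genes were called.

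The comparison, the gene lists and the members were chosen with earlier results of these data known. Named genes are the engineered genes and their driver gene, the core members of each list and its 3 largest called changes with a mean of at least 50 units, the 12 largest rises and 12 largest falls of called genes without overlap, the 6 genes with the widest range over the VM tumours, and the 4 largest rises and falls against VIM and MYC tumours. Other list members were named after their values were seen, and some genes that the rule names are not reported here. Alternatives changed the pseudocount to 0.1 or 10, the filter on low values, the scaling (TMM or quantile), the moderation, the kidneys and the libraries fitted, and left out each library in turn. Tests on recovered reads used limma voom and, added after seeing the data, the edgeR 4.0.16 quasi-likelihood test. Promoter windows run from 250 bases before to 50 after a start, from RefSeq. Each VM tumour is from a different numbered mouse. Nothing used here says that the kidneys are from separate mice, so p-values measure the spread between these samples, which may be technical.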

Additional observations from a re-analysis of the deposited data

Results flagged for a closer look

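In each of 231 named genes, the kidney library farthest from the other 4 was compared with the spread of all 5, and 23 genes had a library standing apart, where chance gives about 1 in 20 groups. KT-J22 was that library in 18 of them. It was low in Kap (233226 units), Ugt3a2 (28958.9), Slc22a6 (13122.1), Cyp2e1 (6278.3), Ces1f (3024.67), Slco1a1 (1072.74) and Slc7a13 (865.275), genes of kidney transport and metabolism. It was also low in Ldha (7184.06 units), Odc1 (6552.81), P4ha2 (339.026), Hmox1 (287.16) and Ddx3y (69.5762). KT-J22 was high in Lrp2 (53957 units), the endocytic receptor megalin, and in Elovl6 (2056.93) and Trf (1263.76).

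For Cfd, Cyp11b1 and Zic2, KT-J22 held 1.265 units and the other kidneys 0. KT-J21 was low in Ptprc (216.058 units), the leukocyte antigen CD45. B6-J18 held 1.7301 units of Barx2, Epo and Lingo3, and KT-J20 4.886 units of Epha8, each with the other kidneys at 0. Single reads are worth 1.265 units in KT-J22, 1.73 in B6-J18 and 1.63 in KT-J20, so these 7 rest on 1 to 3 reads. What sets KT-J22 apart was not tested.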

How the results depend on the processing

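The 6558 genes called between VM tumours and kidneys were 5097 to 6716 over the alternatives and 6001 to 6559 with 1 library left out. Quantile normalization moved the share of calls that were lower from 56.7% to 47.8% and the median log2 change from −0.06 to 0.11. The 42 genes called against VIM tumours became 502 in one fit over all tumours and kidneys, 24 with genes averaging 10 units or more and 21 with a pseudocount of 0.1, and 2 to 43 with 1 tumour left out (2 without VIM replicate 1, 3 without VIM replicate 2, 7 without VM 2459, 13 without VM 3055 and 19 without VM 3115). The 0 genes called against MYC tumours became 350 in one fit and 0 to 4 with 1 tumour left out (4 without MYC replicate 2), and the 0 between B6 and KT kidneys 0 to 10 (10 without KT-J22). Against B6 kidneys alone, where fewer genes were tested, 12 of 12 collecting duct genes (20 of 20 in the reported test), 12 of 20 renal transcription factors (19 of 22), 8 of 15 lymphocyte genes (14 of 18), 4 of 6 of the distal convoluted tubule (8 of 9), 2 of 7 of podocytes (6 of 9), 3 of 9 of mural cells (6 of 9) and 12 of 22 of antigen presentation (18 of 22) were lower. Of lymphocyte genes, 5 of 5 were lower under the filter at 10 units and 5 of 18 with a pseudocount of 10. With quantile normalization 2 tricarboxylic acid cycle genes (5) and 1 of oxidative phosphorylation (4) were lower and 6 fibroblast genes (3) were higher.

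Of 219 named genes, 173 kept their direction and side of the threshold throughout. Of their 4577 alternative values, 79 lost a call, 32 gained one and 25 changed sign. No sign change was in a called gene. They were, in log2 change, Csf1r 0.42 against B6 kidneys, Col1a1 −0.28, Scd1 −0.59 and Slc7a8 −0.22 against KT kidneys, Angptl4 0.69, Car9 1.28, Grb10 1.22 and Scd1 −0.85 with edgeR, and Angptl4 0.11 and Csf1r 0.27 without KT-J21 and KT-J22. With 1 library left out the ranges were −1.12 to 0.58 for Angptl4, −2.31 to 0.30 for Car9, −0.57 to 0.20 for Csf1r, −0.024 to 3.19 for Eda2r, −3.96 to 0.19 for Grb10, −0.74 to 0.089 for H2-K1, −0.061 to 1.30 for Scd1 and −0.61 to 0.39 for Slc7a8. Calls lost with 1 library left out were those of Cdkn1a (without KT-J20), Zeb2 (3115), Hmox1 (3055 or KT-J22), Sdhb (2459), and Hba-a2, Hsd3b1 and Ret (several). The cause was not tested. No paired analysis was possible because the numbers of tumours and kidneys name mice or libraries and pair none of them.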

Other observations

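Gene families grouped by the stem of their symbol were counted after the values were seen. Of 48 tested genes with the stem Rpl, proteins of the large ribosomal subunit, 44 were called higher in VM tumours and 1 lower, with a median log2 change of 2.05. Of 44 with the stem Rps, mostly proteins of the small ribosomal subunit, 32 were higher and 1 lower, with a median of 2.16. Genes of both stems have near-identical pseudogene copies, so their values are uncertain. Of 57 genes with the stem Eif, mostly translation initiation factors, 25 were higher and 2 lower. Of 21 genes with the stem Nup, proteins of the nuclear pore, 13 were higher and 0 lower. The mitochondrial ribosome differed from these: 3 of 46 Mrpl genes and 0 of 29 Mrps genes were higher, and 0 of either were lower. Over all genes tested, 17.7% were called higher and 23.2% lower.

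Of 320 solute carriers (Slc), which move ions, sugars, amino acids and other small molecules across membranes, 141 were called lower and 32 higher. Of 60 cytochromes P450 (Cyp), enzymes that oxidise steroids, fatty acids and foreign compounds, 34 were lower and 3 higher, with a median log2 change of −1.90. Of 24 phosphodiesterases (Pde), 12 were lower and 2 higher, and of 78 genes with the stem Gpr, receptors coupled to G proteins, 31 were lower and 12 higher. Of 20 protocadherins of the beta cluster (Pcdhb), adhesion proteins close to one another in sequence, 10 were lower and 0 higher, with a median log2 change of −1.83.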
